A study of Mus musculus with 6 samples.

Results

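The 9 genes described here encode factors of nonsense-mediated mRNA decay (NMD). They were taken by name from a gene table of 24318 symbols, and all 9 were found: Upf1, Upf2, Upf3a, Upf3b, Smg1, Smg5, Smg6, Smg8 and Smg9. CAD, the cell line used, is a catecholaminergic line of neuronal type from the mouse. Of the 6 libraries, 3 were from cells given siRNA to circGigyf2, the circular transcript of the Gigyf2 locus (siCircGigyf2), and 3 from cells given a control siRNA (siNC). No other treatment, differentiation step or time after siRNA is given in the labels, and 1 siRNA group stands for the knockdown. Values are FPKM, fragment counts scaled by transcript length and by sequencing depth, measured after removal of ribosomal RNA.

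NMD is the pathway that degrades mRNAs whose translation ends too early, and it also sets the level of many normal transcripts, such as those with upstream reading frames or an intron in the 3′ UTR. The RNA helicase UPF1 binds the stalled terminating ribosome together with the kinase SMG1 and the release factors. UPF2 and UPF3 proteins link this assembly to exon junction complexes left downstream of the stop codon, SMG1 phosphorylates UPF1, and SMG8 and SMG9 restrain the kinase. Phosphorylated UPF1 recruits SMG6, an endonuclease, and the adaptor SMG5, and decapping and deadenylation also take part in the decay. In mammalian cells several NMD factor mRNAs are themselves substrates of the pathway, and loss of UPF3B is a cause of intellectual disability in humans.

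Each member is expressed in these cells, and 3 of the 9 were higher with the circGigyf2 siRNA. Smg1, Upf3b and Upf1 rose by 0.31, 0.23 and 0.16 on the log2(FPKM + 1) scale, and none of the 9 fell by limma, nor had any a negative difference at an unadjusted p under 0.05. The other 6, among them the decay effectors Smg6 and Smg5, did not pass the test. Over all 11420 genes with a mean of at least 1 FPKM, 38.2% passed the same test (limma, Benjamini-Hochberg adjusted p under 0.05), with 19.5% of all tested genes higher and 18.7% lower, so that 3 of 9 (33.3%) is close to the background. The median log2 difference was 0.07 over the 9 members, against 0.00035 over all genes tested. With FPKM rescaled to the same sum in each library, 34.6% of the calls over all genes were higher, against 51.1% as deposited, and 2 members rose in place of 3.

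The groups differed slightly as wholes. FPKM summed to 604881 to 624645 in siCircGigyf2 cells and to 578627 to 601552 in siNC cells. The number of fragments obtained is not given, but the spacing of values under 0.3 FPKM gave relative depths, with siNC replicate 1 set to 1, of 0.802 to 0.915 for the siCircGigyf2 group and 0.953 to 1 for the siNC group. Both measures separated the groups, and their part in the differences between genes was not tested. Of 12 markers of a catecholaminergic neuronal line, 11 had a mean of at least 1 FPKM, and the list summed to 1480 to 1520 FPKM in siCircGigyf2 cells and to 1530 to 1550 FPKM in siNC cells. Of 14 markers of glia, microglia, endothelium and fibroblasts, 2 (Pecam1 and Col1a1) reached 1 FPKM and 4 were listed at 0 in all libraries; the list summed to 9.25 to 10.8 FPKM in siCircGigyf2 cells and to 8.52 to 9.88 FPKM in siNC cells. Gigyf2, the host gene, averaged 21.4 ± 0.330 FPKM in siCircGigyf2 cells and 23.2 ± 0.0749 FPKM in siNC cells (SD, n = 3 each). Gigyf2 fell by 0.11 (limma adjusted p = 0.0287), a call that held on omission of siCircGigyf2 replicate 1 and on that of no other library (0.0659 to 0.0845). Linear and circular RNA of the locus are not separated in such a value, so the knockdown of circGigyf2 itself was not measured here. As these are bulk samples, fewer cells with a transcript and less transcript per cell cannot be told apart. The labels do not say that the replicates were separate cultures, so the p-values may measure technical spread.

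The levels of the 9 genes fell into steps. FPKM is scaled by transcript length, so levels can be set side by side. Smg1 was the most abundant member, with a mean of 30.5 FPKM over the 6 libraries. Upf1 and Upf3a followed at 18.7 and 18.6 FPKM, then Upf2, Smg8 and Upf3b at 13.3, 13.2 and 12.0 FPKM. Smg6, Smg9 and Smg5, at 6.86, 6.63 and 6.27 FPKM, formed the lowest step. Upf2 and Smg8 overlapped in both groups, whereas Upf3b overlapped them in siCircGigyf2 cells and lay below them in siNC cells. The libraries of Smg1 did not overlap those of Upf1 or Upf3a in either group, and those of Upf3b did not overlap those of Smg6. Within the lowest step all 3 genes overlapped one another in both groups. Against all genes tested, Smg1 stood above 76.4% of genes in mean FPKM and Smg5 above 29.7%.

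**Figure D1:**
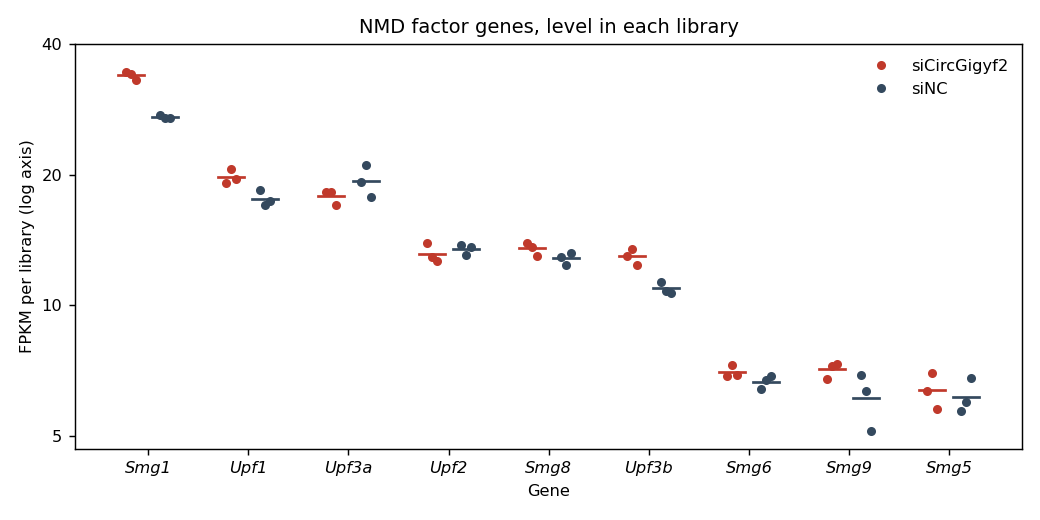
FPKM of each NMD factor gene in each library on a log axis, ordered by mean level, with siCircGigyf2 left of siNC; points are libraries and bars are means of 3. The groups stand apart for Smg1, Upf3b and Upf1, and Smg6, Smg9 and Smg5 lie lowest, between 5.15 and 7.35 FPKM.

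The UPF1 kinase gene had the largest rise of the 9. Smg1 encodes a large kinase of the PI3K-related family that phosphorylates UPF1. It stood at 34.57, 34.13 and 33.02 FPKM in siCircGigyf2 cells, against 27.44, 27.06 and 26.96 FPKM in siNC cells. Every siCircGigyf2 library lay above every siNC library, and the gap between the groups was wider than the range within either. The means were 33.9 ± 0.799 and 27.2 ± 0.256 FPKM (SD, n = 3 each), a ratio of 1.25. The log2 difference was 0.31 (SE 0.0326, 95% interval 0.24 to 0.38, limma adjusted p = 0.000161). Of all genes tested, 87.4% differed by less in either direction.

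The genes of the SMG1 subunits SMG8 and SMG9, which bind the kinase and hold it inactive, did not pass. Smg8 stood at 13.96, 13.66 and 13.01 FPKM with the circGigyf2 siRNA and at 12.94, 12.42 and 13.22 FPKM with the control siRNA, so that siNC replicate 3 lay above siCircGigyf2 replicate 3. Its log2 difference was 0.07 (95% interval -0.03 to 0.17, limma adjusted p = 0.248). Smg9 stood at 6.774, 7.256 and 7.351 FPKM in siCircGigyf2 cells, against 6.909, 6.36 and 5.145 FPKM in siNC cells. The siNC libraries of Smg9 were spread widely, and the highest of them exceeded siCircGigyf2 replicate 1. The log2 difference of Smg9 was 0.19 (95% interval -0.01 to 0.40, limma adjusted p = 0.115), a larger mean difference than that of Upf1 but with a SE of 0.0888, against 0.0444 for Upf1. Without siNC replicate 1 Smg9 passed, with a log2 difference of 0.27 (adjusted p = 0.0424), and without siNC replicate 3 the difference was 0.09.

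Upf1, the helicase at the centre of the pathway, rose by a small amount. It stood at 19.14, 20.61 and 19.57 FPKM in siCircGigyf2 cells, against 18.43, 17.07 and 17.37 FPKM in siNC cells. The groups did not overlap, but siCircGigyf2 replicate 1 and siNC replicate 1 were close to each other. The means were 19.8 ± 0.755 and 17.6 ± 0.716 FPKM (SD, n = 3 each), a ratio of 1.12 and a log2 difference of 0.16 (95% interval 0.06 to 0.26, limma adjusted p = 0.0213). This call rested on single libraries: adjusted p was 0.0649 when siCircGigyf2 replicate 2 was omitted, 0.0734 when siNC replicate 2 was and 0.0665 when siNC replicate 3 was. It was also lost with FPKM rescaled to a fixed sum (0.110). Upf2, the adaptor between UPF1 and UPF3 proteins, stood at 13.91, 12.92 and 12.63 FPKM in siCircGigyf2 cells and at 13.75, 13.09 and 13.63 FPKM in siNC cells. Its groups overlapped fully, and the log2 difference of -0.04 had a 95% interval from -0.14 to 0.07 (limma adjusted p = 0.591). A Upf2 change as large as the rise of Smg1 lies outside that interval.

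Of the UPF3 paralogs, Upf3b passed the test and Upf3a did not. Upf3b, the X-linked paralog and the stronger NMD activator of the pair, stood at 13.01, 13.5 and 12.4 FPKM with the circGigyf2 siRNA, against 11.33, 10.81 and 10.71 FPKM with the control siRNA. The groups did not overlap, and Upf3b rose by 0.23 (SE 0.0467, 95% interval 0.12 to 0.33, limma adjusted p = 0.00522), a ratio of means of 1.18. Upf3a, whose protein has been described as a weak activator and in some settings as a repressor of NMD, stood at 18.25, 18.25 and 17.01 FPKM in siCircGigyf2 cells and at 19.27, 21.09 and 17.74 FPKM in siNC cells. Here siNC replicate 3 lay within the range of the siCircGigyf2 libraries and the other siNC libraries above it. The log2 difference of Upf3a was -0.11 (95% interval -0.25 to 0.03) and did not pass (limma adjusted p = 0.182). It was -0.05 without siNC replicate 2 and -0.17 (adjusted p = 0.0513) without siNC replicate 3. Upf3a was above Upf1 in each siNC library and below it in each siCircGigyf2 library.

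Smg6 and Smg5, the members that act after UPF1 phosphorylation, showed no difference that passed the test. Smg6, the endonuclease gene, stood at 6.891, 7.282 and 6.919 FPKM in siCircGigyf2 cells and at 6.407, 6.751 and 6.889 FPKM in siNC cells. Its groups touched without overlapping, as siCircGigyf2 replicate 1 and siNC replicate 3 were nearly equal, and the log2 difference was 0.06 (95% interval -0.05 to 0.18, limma adjusted p = 0.357). Smg5, which encodes an adaptor that binds phosphorylated UPF1, stood at 6.359, 6.997 and 5.767 FPKM with the circGigyf2 siRNA and at 5.726, 5.981 and 6.792 FPKM with the control siRNA. The groups of Smg5 overlapped over nearly their whole range, and its log2 difference of 0.04 (95% interval -0.14 to 0.22, limma adjusted p = 0.714) changed sign without siCircGigyf2 replicate 2, without siNC replicate 1 and with rescaled FPKM. Counted over the 9 members, the groups did not overlap for 4 (44.4%), namely Smg1, Upf1, Upf3b and Smg6, against 51.0% of all genes tested.

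**Figure D2:**
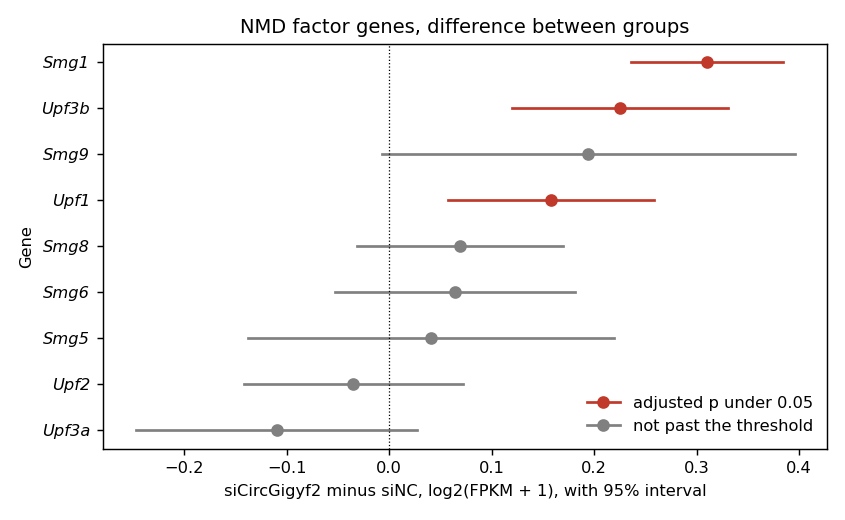
Difference between siCircGigyf2 and siNC for each NMD factor gene on the log2(FPKM + 1) scale, with the 95% interval of the limma fit; red marks an adjusted p under 0.05. The intervals of Smg1, Upf3b and Upf1 lie above 0, and those of the other 6 genes include 0.

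Ratios between members within a library do not depend on how libraries are scaled, apart from the added 1 FPKM. They ask whether a pair of members moved unequally. The log2 ratio of Upf3a to Upf3b was 0.458, 0.409 and 0.427 in siCircGigyf2 cells, against 0.718, 0.904 and 0.678 in siNC cells. All siCircGigyf2 libraries lay lower, and the difference of means was -0.335. The ratio of Upf1 to Upf2 was 0.435, 0.635 and 0.594 in siCircGigyf2 cells, against 0.398, 0.358 and 0.328 in siNC cells, a difference of 0.193. The ratio of Smg1 to Upf1 was 0.820, 0.701 and 0.726 in siCircGigyf2 cells, against 0.550, 0.635 and 0.606 in siNC cells, a difference of 0.152. For these 3 pairs the groups did not overlap, which gave p = 0.1 in an exact two-sided permutation test over the 6 libraries, the smallest p that 3 against 3 allows, and an adjusted p = 0.167 over the 5 pairs compared. With 3 libraries a group this test cannot reach 0.05, so it does not decide whether the pairs moved unequally. The groups overlapped for Smg5 to Smg6 (difference -0.023, exact permutation p = 0.9) and for Smg8 to Smg9 (-0.125, exact permutation p = 0.6), where the difference was -0.199 without siNC replicate 1 and -0.00238 without siNC replicate 3.

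**Figure D3:**
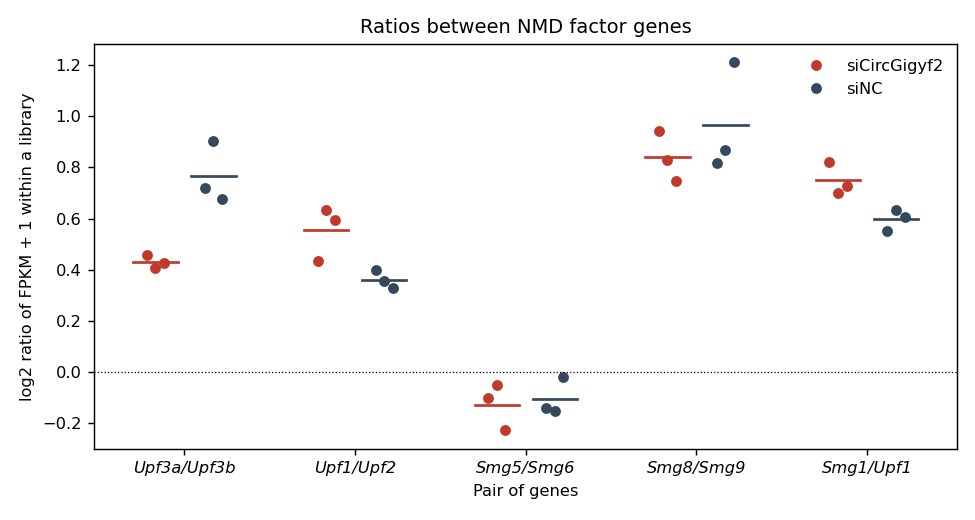
Log2 ratio of FPKM + 1 between pairs of NMD factor genes within each library, siCircGigyf2 left of siNC; points are libraries and bars are means of 3. The siCircGigyf2 libraries lie below the siNC libraries for Upf3a to Upf3b and above them for Upf1 to Upf2 and Smg1 to Upf1, and the groups overlap for the other pairs.

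The promoters of the 3 members that rose are shown as the sequences at their starts. They come from RefSeq on build GRCm38.p6, with 250 bases before and 50 after the annotated start, each on its gene's own strand. The FPKM table rests on build mm9, and no coordinate was carried between builds. Capitals mark matches, on either strand, to the NRF1 motif GCGCANGCGC, to TCGCGAGA, to the YY1 motif AAGATGGC, to the SP1 motif GGGCGG and to CCAAT. Smg1 lies at chr7:118243588-118243887 (minus strand), Upf3b at chrX:37110273-37110572 (minus strand) and Upf1 at chr8:70353230-70353529 (minus strand).
Smg1: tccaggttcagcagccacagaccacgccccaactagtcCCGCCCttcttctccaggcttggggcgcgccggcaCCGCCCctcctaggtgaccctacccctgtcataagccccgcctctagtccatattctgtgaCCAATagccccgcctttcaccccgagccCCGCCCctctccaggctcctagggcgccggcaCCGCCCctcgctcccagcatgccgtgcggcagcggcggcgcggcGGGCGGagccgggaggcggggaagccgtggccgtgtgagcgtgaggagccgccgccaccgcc
Upf3b: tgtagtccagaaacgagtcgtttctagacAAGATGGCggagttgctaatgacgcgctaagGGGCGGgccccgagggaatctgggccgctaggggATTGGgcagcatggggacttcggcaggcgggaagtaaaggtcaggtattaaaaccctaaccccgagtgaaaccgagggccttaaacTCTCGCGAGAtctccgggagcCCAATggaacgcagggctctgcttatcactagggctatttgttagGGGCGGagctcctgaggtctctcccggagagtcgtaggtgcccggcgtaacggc
Upf1: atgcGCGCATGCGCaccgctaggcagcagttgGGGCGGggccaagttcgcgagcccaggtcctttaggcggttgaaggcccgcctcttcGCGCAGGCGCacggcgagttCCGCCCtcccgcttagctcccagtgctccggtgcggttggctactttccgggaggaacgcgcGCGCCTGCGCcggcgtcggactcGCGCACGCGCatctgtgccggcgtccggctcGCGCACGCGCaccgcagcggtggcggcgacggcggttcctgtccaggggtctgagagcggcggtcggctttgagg

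The promoters of Smg1, Upf3b and Upf1 held 30, 22 and 47 CG pairs, and those of the 6 members that did not pass held 18 to 38. Smg1 and Upf3b lay within that range and Upf1 above it. The median was 7 over the 32851 promoters of the RefSeq table. The SP1 motif was found in all 3, and in 7 of the 9 members (all but Smg5 and Smg8), where 35.7% of all promoters held it. The NRF1 motif was found in Upf1, with 5 matches, and in Smg6 and Smg9, but in neither Smg1 nor Upf3b, and in 4.60% of all promoters. TCGCGAGA was found in Upf3b and Smg5, where 0.995% of all promoters held it, and the YY1 motif in Upf3b alone of the 9, where 2.75% did. CCAAT was found in Smg1, Upf3b, Upf3a and Smg8, and in 37.4% of all promoters. In Upf3b the TCGCGAGA match and its reverse complement overlap each other. All 9 members are expressed here, whereas the 32851 promoters were not limited to genes expressed in these cells, so they are not a matched background. The motifs do not separate the members that rose from those that did not pass, and a match of letters is not a measured binding site.

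None of the 9 members carried GCCTACA in the 3′ UTR of its longest coding transcript (GENCODE M21, build GRCm38), a run of bases that had been picked from genes that fell in these same libraries. It was found in 6.49% of 10466 tested genes searched. In coding sequence, where 13.2% of those genes held it, Smg5 had 2 matches and Smg1 had 1. Among the genes of the pathway lists that were searched, 5 carried it in the 3′ UTR: Gspt1, its paralog Gspt2, Ncbp3, Tbl2 and Arc. Cnot8, Gas5, Zfas1, Snhg1 and Snhg12 were not searched. The longer run GCCTACAA was found in Gspt1, Ncbp3 and Tbl2, and in 1.39% of the tested genes searched. Of the 145 tested genes with the longer run, 71 fell and 18 rose, where 18.7% of all genes tested were lower and 19.5% higher. This count is not a test, since the run was picked from genes that fell in these libraries. Of the 5 genes of the pathway lists that carried GCCTACA, Gspt1 alone fell. Arc rose, and Gspt2, Ncbp3 and Tbl2 had log2 differences of -0.03, 0.04 and 0.13 and did not pass (limma adjusted p = 0.770, 0.582 and 0.0538). Ncbp3, Tbl2 and Arc are named here after their values were seen. Windows of 30 bases around the runs of the Gspt paralogs are shown because Gspt1 fell and Gspt2 did not pass the test, a contrast that was itself not tested, with capitals for the matching bases; they lie at chr16:11220537-11220566 (minus strand) and chrX:94638391-94638420 (plus strand) of GRCm38.
Gspt1: tggacataattGCCTACAAtaatgaaaacc
Gspt2: tgtgtgtaattGCCTACAgtcctaaaaaga

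Gspt1 encodes the release factor eRF3, a GTPase that acts with eRF1 at stop codons and meets UPF1 and SMG1 there. It stood at 26.65, 23.84 and 26.8 FPKM in siCircGigyf2 cells, against 42.65, 43.61 and 43.23 FPKM in siNC cells. The groups were far apart, and Gspt1 fell by 0.72 (log2; SE 0.0462, adjusted p = 1.95e-05 in limma), and 99.4% of all genes tested differed by less. Gspt2 averaged 6.55 ± 0.327 FPKM in siCircGigyf2 cells and 6.72 ± 0.684 FPKM in siNC cells (SD, n = 3 each), with overlapping groups and limma adjusted p = 0.770. Etf1, the gene of eRF1, averaged 47.5 ± 0.914 FPKM in siCircGigyf2 cells and 46.8 ± 0.347 FPKM in siNC cells (limma adjusted p = 0.591). Of the 3 release factor genes, 1 fell and none rose, also at an unadjusted p under 0.05, where 18.7% of all genes tested were lower and 19.5% higher.

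Of the 8 genes in the list of other NMD factors, 2 fell and 1 rose, with a median of -0.04, a share near the 38.2% called over all genes tested. Those that fell were both genes of the AAA ATPase pair that supports SMG1 and related kinases. Ruvbl2 averaged 38.7 ± 2.23 FPKM in siCircGigyf2 cells and 46.2 ± 1.32 FPKM in siNC cells, and Ruvbl1 averaged 33.6 ± 1.90 FPKM in siCircGigyf2 cells and 37.2 ± 0.486 FPKM in siNC cells (limma adjusted p = 0.00249 and 0.0263). The call of Ruvbl1 was lost without siCircGigyf2 replicate 2 or 3 or siNC replicate 1 or 2 (adjusted p from 0.0612 to 0.0790), which left 1 gene that fell in place of 2. Ice1, whose product has been linked to the association of UPF3B with exon junction complexes in human cells, was the gene that rose, by 0.15 (limma adjusted p = 0.00908, or 0.0875 with rescaled FPKM). Pnrc2, whose product links UPF1 to decapping in human cells, had a log2 difference of -0.05 and did not pass (limma adjusted p = 0.320, or 0.0499 with rescaled FPKM).

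Exon junction complex genes supply the mark that UPF3 proteins read. Of 9 tested, 3 fell and none rose by limma, with a median of -0.09, and none was higher at an unadjusted p under 0.05 either; 18.7% of all genes tested were lower. Casc3, a core component named after its values were seen, had a difference of 0.09 with groups that did not overlap, and did not pass (limma adjusted p = 0.106). Rnps1, a peripheral component that acts with UPF proteins, averaged 91.5 ± 2.20 FPKM in siCircGigyf2 cells and 115.6 ± 2.12 FPKM in siNC cells (SD, n = 3 each) and fell by 0.33 (limma adjusted p = 8.02e-05). Acin1 fell by 0.13 and Eif4a3, the anchoring helicase of the core, by 0.09 (limma adjusted p = 0.0180 and 0.0442). Both of these calls were fragile. That of Acin1 was lost without siNC replicate 1 or 2 (adjusted p = 0.0723 and 0.0620), and that of Eif4a3 when any library but siNC replicate 2 was left out (0.0608 to 0.155). Without siNC replicate 1, 1 gene of the list fell in place of 3. Magohb had a log2 difference of -0.17 and did not pass (limma adjusted p = 0.0690), although it passed without siCircGigyf2 replicate 1 (adjusted p = 0.0483) or siNC replicate 3 (0.0182).

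Among cap-binding and poly(A)-binding proteins, 1 of 6 rose and 1 fell, a share near the 38.2% called over all genes tested. Pabpn1, the nuclear poly(A)-binding protein gene, averaged 63.9 ± 3.19 FPKM in siCircGigyf2 cells and 57.3 ± 0.749 FPKM in siNC cells (SD, n = 3 each; limma adjusted p = 0.0126, or 0.0596 with rescaled FPKM). Ncbp2, of the nuclear cap-binding complex, fell by 0.13 (limma adjusted p = 0.0409), a call that held on omission of siCircGigyf2 replicate 3 and on that of no other library (0.0608 to 0.113). Pabpc1, which opposes NMD when it is close to the stop codon, and Pabpc4 had log2 differences of 0.04 and -0.06 and did not pass (limma adjusted p = 0.324 and 0.471), that of Pabpc1 being below 0 with rescaled FPKM or quantile normalization. Of 6 tested genes of the decay enzymes that act after NMD, 2 rose and 1 fell, where 19.5% of all genes tested were higher and 18.7% lower. Dcp2, the decapping enzyme, averaged 10.7 ± 0.626 FPKM in siCircGigyf2 cells and 7.42 ± 0.317 FPKM in siNC cells and rose by 0.47 (limma adjusted p = 0.000275). Dcp1a, its activator, rose by 0.29 (limma adjusted p = 0.00187), whereas Cnot8, a deadenylase subunit of the CCR4-NOT complex, fell by 0.23 (limma adjusted p = 0.00185). Exosc10, of the nuclear exosome, had a difference of 0.09 and did not pass (limma adjusted p = 0.0689), but passed without siCircGigyf2 replicate 1 (adjusted p = 0.0334).

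Of 17 transcripts that have been described as NMD-sensitive, 16 were tested, and 7 rose, 1 fell and 8 did not pass, where 19.5% of all genes tested were higher and 18.7% lower. Their median difference was 0.15, against 0.00035 over all genes tested, and no test of the list was run. The list was chosen with earlier results of these data known, so these counts are a description only. The number that rose was 5 with quantile normalization, with rescaled FPKM, with no variance trend, or without siNC replicate 1 or 2. Snhg1 and Snhg12, snoRNA host transcripts whose spliced forms end in decay, averaged 239 ± 14.4 and 103 ± 9.45 FPKM in siCircGigyf2 cells, against 194 ± 11.9 and 82.9 ± 1.80 FPKM in siNC cells (SD, n = 3 each). Gadd45a, a stress gene that links NMD loss to cell death, averaged 4.45 ± 0.255 FPKM in siCircGigyf2 cells and 3.33 ± 0.405 FPKM in siNC cells, and the cell cycle inhibitor gene Cdkn1a averaged 34.9 ± 1.64 FPKM in siCircGigyf2 cells and 30.4 ± 1.63 FPKM in siNC cells. All 4 passed (limma adjusted p from 0.00226 to 0.0122). Atf4, Arc and Dnajb2, named after their values were seen, also rose, by 0.08, 0.25 and 0.18. The calls of Atf4 and Dnajb2 were weak, that of Atf4 being lost without any 1 of the 6 libraries (limma adjusted p from 0.0538 to 0.0981) and that of Dnajb2 without siCircGigyf2 replicate 2 or 3 or siNC replicate 1 or 3 (0.0961 to 0.139), and that of Arc was lost without siNC replicate 2 (0.0547). Chac1, a glutathione-degrading enzyme gene also named after its value was seen, fell by 0.31 and was lost without siCircGigyf2 replicate 2 (limma adjusted p = 0.0558) or siNC replicate 3 (0.0551). Among those that did not pass, Gas5 and Zfas1 had log2 differences of -0.01 and 0.13 (limma adjusted p = 0.876 and 0.098). Gadd45b, Atf3, Ddit3, Tbl2, Map3k14 and Ern1 did not pass either (limma adjusted p from 0.0538 to 0.442). These 8 are also named after their values were seen. Several genes of the list respond to stress or growth signals as well, and the part of NMD in their levels was not tested.

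**Figure D4:**
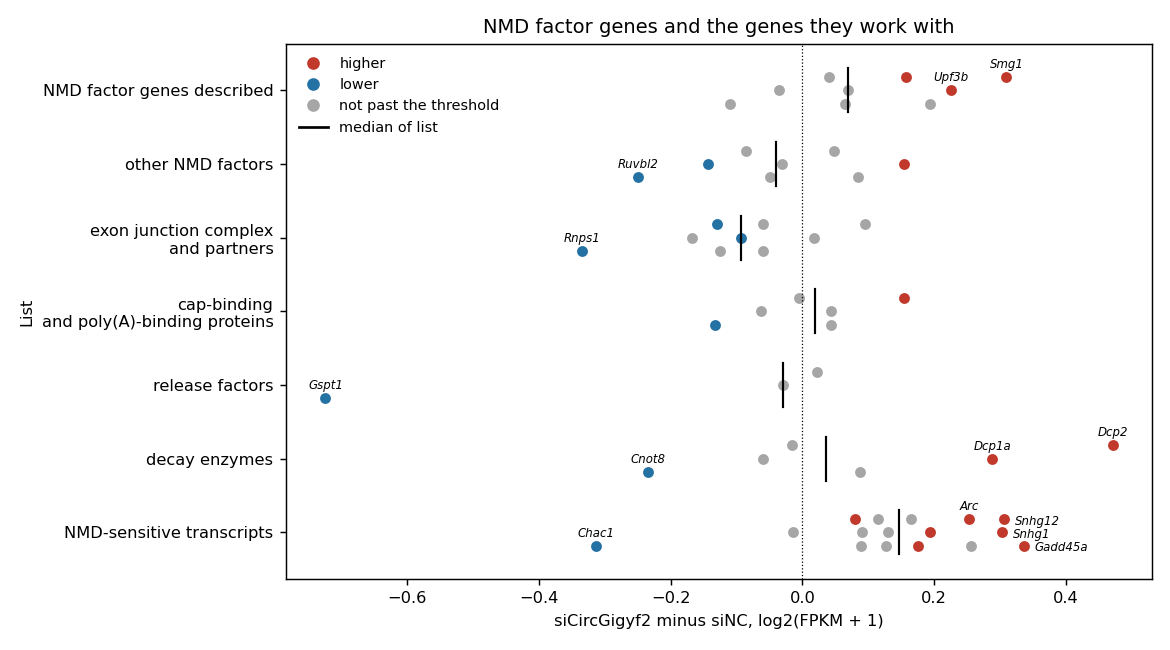
Differences between siCircGigyf2 and siNC on the log2(FPKM + 1) scale for the 9 NMD factor genes and 6 lists. The lists hold genes that work with the factors or, in the bottom row, transcripts described as NMD-sensitive. Each point is a gene, coloured by its limma call, and black bars are list medians. Gspt1 lies farthest to the left at -0.72 and Dcp2 farthest to the right at 0.47, and the 3 coloured points of the top row are Upf1, Upf3b and Smg1.

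Annotation bears on how far these values belong to single genes. In GENCODE M21, exons of Upf1 overlap exons of Cers1 on the opposite strand over 68 bases, and exons of Smg6 overlap those of Srr, also opposite, over 126 bases. Cers1 and Srr averaged 7.83 and 6.11 FPKM over the 6 libraries. Gspt1 overlaps 2610020C07Rik over 239 bases on the opposite strand. Whether the counting used strand is not given in the sources used here, so reads from these stretches cannot be assigned. Smg1, Smg5 and Smg6 each have 1 annotated transcript of the nonsense-mediated decay class among 10, 9 and 6 transcripts, and the gene-level FPKM pools all of them. The genes whose pattern over the 6 libraries was most like that of Upf1 were 2900041M22Rik, Tcn2 and Cbr1, with Pearson's r of 0.994, 0.993 and 0.989 on log2(FPKM + 1), a description that includes the difference between the groups.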

How the data were processed

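The authors deposited FPKM as 1 table, 1 column to a library, on build mm9 per the submitters' processing notes. Aligner, quantifier, annotation and strand handling: not given in the sources used here. Columns were matched to samples by title. FPKM are relative within a library, and no count model was used.

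Genes with a mean of at least 1 FPKM entered a two-sided limma fit of log2(FPKM + 1) without covariates (limma 3.58.1, R 4.3.3, empirical Bayes, variance trended on the mean), with Benjamini-Hochberg adjustment over all 11420 genes and a threshold of 0.05. The test was tested on simulated data. Differences are siCircGigyf2 minus siNC and understate changes of low genes. Leaving out genes at 0 in both libraries of a pair, no pair shared over 0.0062% of its values.

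The 9 members and the lists were chosen with earlier results of these data known. Named genes are the members, Gigyf2, up to 4 genes of smallest p per list and the 3 genes most like Upf1. Pym1, Ncbp3 and Zfas1 were matched by older symbols. 1 gene of a list is not reported here. Alternatives were a pseudocount of 0.1, no filter, a filter of 5 FPKM, 3 other scalings, a replicate block, other variance models and leaving out each library. Sequences were read with Python 3.11.15.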

Additional observations from a re-analysis of the deposited data

How the results depend on the processing

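The rises of Smg1 and Upf3b kept their direction and call under all 15 alternatives run, with adjusted p up to 0.0013 and 0.0232 and log2 differences of 0.263 to 0.328 and 0.183 to 0.255. The number of members that rose ranged from 2 to 4 when a library was left out, and 0 fell under any alternative. Upf1 rose in 11 of 15 alternatives. Smg5, which did not pass, changed sign with FPKM rescaled to a fixed sum (-0.0042), without siCircGigyf2 replicate 2 (-0.0193) and without siNC replicate 1 (-0.00347), and ranged up to 0.103 when a library was left out. Rescaling also turned Etf1 to -0.0293 and Pabpc1 to -0.00825, and quantile normalization turned Pabpc1 to -0.0011; Gspt2 became 0.00637 without siCircGigyf2 replicate 3 and 0.0418 without siNC replicate 3, in a range from -0.0746. The Smg5 to Smg6 ratio ranged from -0.0611 to 0.0271 when a library was left out, with 0.0271 without siCircGigyf2 replicate 3 and 0.0191 without siNC replicate 3. The causes were not tested.

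Deviations of same-numbered libraries correlated at 0.163, -0.021 and 0.003 for replicates 1, 2 and 3, against -0.119 to 0.131 for libraries of unlike number. The replicate 1 pair was the highest of all, but replicates 2 and 3 lay within the range of unlike numbers. The numbers were therefore not taken to pair the libraries. With the replicate number as a block, 3 members rose and 0 fell, and 3973 genes passed in place of 4367. Absolute depth is unknown, so counting error could not be given.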
